A study of Mus musculus with 6 samples.

Results

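The plasminogen activator system genes examined here are Plau, Plaur, Plat, Serpine2 and Serpinb2, 5 genes of the mouse genome followed in cultured keratinocytes that lack the zinc finger transcription factors Ovol1 or Ovol1 and Ovol2. Members were chosen by gene symbol in the platform annotation, and a probe set was to be selected on its mean intensity over the 6 arrays where a gene had several. Of the 5 members, 4 were measured among 19938 genes, with 1 probe set each. No probe set carried the symbol Serpine2 in the annotation used, so that gene was not analysed here. The members were proposed with genotype differences on these arrays already known. Their values are therefore a description, and no p-value below is independent support for the choice of genes.

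Keratinocytes were isolated from C57BL/6 skin at E18.5, shortly before birth, grown for 2 to 5 days, given calcium and kept for another 3 to 5 days. Calcium starts the differentiation programme of these cells. Each of 3 groups has 2 Affymetrix whole-transcript arrays, and each array holds RNA pooled from 2 mice. Control mice were Ovol2flox/+ with either Ovol1+/- or K14-Cre, and the labels do not say which control array holds which. Mice of the Ovol1 KO group were Ovol1-/-, with no Ovol2 allele named. Mice of the Ovol1/2 double knockout group, DKO below, were Ovol1-/- and Ovol2flox/- with K14-Cre, a transgene driven by a keratin promoter of basal keratinocytes. Every array is labelled female and calcium-treated.

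The plasminogen activator system turns the plasma protein plasminogen into plasmin, a serine protease that cuts fibrin and many matrix proteins. Urokinase, encoded by Plau, does so mainly at the cell surface, where it binds the lipid-anchored urokinase receptor encoded by Plaur. Plat encodes tissue-type plasminogen activator, which works best on fibrin. Serpinb2 encodes plasminogen activator inhibitor 2 and Serpine2 encodes protease nexin-1, which both block these enzymes. In skin the system is known for the migration of keratinocytes at wound edges, and plasminogen activator inhibitor 2 is a protein of differentiating epidermis.

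RefSeq promoter sequence (GRCm38.p6) was found for 3 of the 5 members, among them Plaur and Serpinb2. Those of Plaur, the member with the largest difference, and Serpinb2, a member with a small one, are shown so that their letters can be compared beside the expression values. Each run gives the 150 bases before the annotated start, 5′ to 3′ on the plus strand. It spans chr7:24462333-24462482 for Plaur and chr1:107511273-107511422 for Serpinb2. Capitals mark matches to the motifs searched.
Plaur promoter: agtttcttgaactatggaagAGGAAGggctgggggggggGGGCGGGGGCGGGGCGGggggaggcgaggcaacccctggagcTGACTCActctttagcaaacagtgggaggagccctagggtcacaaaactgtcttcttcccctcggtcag
Serpinb2 promoter: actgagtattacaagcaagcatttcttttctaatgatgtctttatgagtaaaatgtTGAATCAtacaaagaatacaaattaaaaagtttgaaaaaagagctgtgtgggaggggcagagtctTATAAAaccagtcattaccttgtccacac
Both windows hold 1 match to TGANTCA, the AP-1 site. It begins 69 bases before the start in Plaur (position -69) and at position -94 in Serpinb2. Of 32851 annotated promoter windows of this length, 4.24% hold this motif on either strand. The Plaur window has 62.7% G and C, with AGGAAG (the Ets core, in 19.7% of windows) at position -130 and 3 matches to GGGCGG (the GC box, in 28.6% of windows) at positions -111, -105 and -100, the last pair sharing 1 base. Serpinb2 has 33.3% G and C and holds TATAAA (the TATA box, in 7.57% of windows) at position -29. The letters TGACGTCA (cyclic AMP response element, 1.36% of windows), CCGTTA (Ovol core, 1.28%) and CAGGTG (Zeb and Snail E-box, 10.6%) are in neither window. All motifs were searched on both strands, and no match was on the strand opposite to the gene for motifs that differ between strands. Serpinb2 has a further annotated start 87 bases downstream. A match is a description of letters, and no binding was measured.

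The arrays stood apart in ways that the genotype labels do not give. Xist, which is transcribed from the inactive X chromosome of females, had log2 values of 4.59 to 4.71 on both control arrays and on Ovol1 KO 1, and at 11.97 to 12.26 on Ovol1 KO 2 and both DKO arrays. The Y-linked gene Eif2s3y split the arrays in the same way, at 13.27 to 13.89 against 5.19 to 5.48. Both therefore go against the female label on 3 arrays and differ between all control and all DKO arrays. Against control, the targeted genes were not lower on average in the groups labelled as lacking them. Ovol1 had log2 values of 10.27 and 9.85 in control, 10.53 and 10.22 in Ovol1 KO, and 10.58 and 10.59 in DKO, so both DKO arrays lay above all others (log2 fold change in DKO against control 0.53, adjusted p = 0.30). Ovol2 had 8.12 and 8.82 in control, 9.005 and 8.99 in Ovol1 KO, and 8.71 and 8.32 in DKO. In DKO it overlapped control (log2 fold change 0.041, adjusted p = 0.98). Both DKO arrays lay below both Ovol1 KO arrays for Ovol2, a difference that did not pass (log2 fold change -0.48, adjusted p = 0.52). Where their probes lie relative to the deleted parts is not given in the labels, so these signals check no label. The group names are kept as labelled. Levels are quantile-normalized log2(intensity + 16), and a log2 fold change on this scale understates the change of dim genes. A gene is called at an adjusted p below 0.05 in limma, with Benjamini-Hochberg adjustment over all genes tested.

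The first comparison set DKO against control and addressed the loss of both factors. Plau and Plaur fell in DKO, the receptor more than the enzyme, while Plat and Serpinb2 did not pass the test. So 2 of the 4 measured members were called, both lower. Among all genes 3.2% were called in either direction and 2.26% were called lower. Since the genes were chosen with this comparison in view, nothing is read from that share.

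Plau had deposited intensities of 2909 and 2879 on the control arrays, 2389 and 2827 on the Ovol1 KO arrays, and 925 and 1342 on the DKO arrays. On the log2 scale these are 11.46 and 11.50, 11.22 and 11.48, and 9.82 and 10.48. Both DKO arrays lay below all other arrays, and the closest control and DKO arrays were still 0.98 log2 units apart. Control and Ovol1 KO arrays lay close together, with Ovol1 KO 2 inside the control range. Control arrays averaged 11.48 ± 0.027 (SD, n = 2), Ovol1 KO arrays 11.35 ± 0.18 and DKO arrays 10.15 ± 0.46. The log2 fold change in DKO against control was -1.33 (SE 0.23, adjusted p = 0.032), a level 2.51-fold lower. Whether fewer cells made urokinase RNA or each cell held less of it cannot be told apart in RNA from whole cultures.

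Plaur had deposited intensities of 2381 and 914 in control, 1589 and 585 in Ovol1 KO, and 59.3 and 123 in DKO. The log2 values were 11.19 and 9.89 in control, 10.63 and 9.22 in Ovol1 KO, and 6.32 and 7.005 in DKO. Every DKO value was below every other, by at least 2.88 against control, and replicate 1 was the higher array in control and Ovol1 KO but the lower one in DKO. Group means were 10.54 ± 0.92 (SD, n = 2), 9.92 ± 0.99 and 6.66 ± 0.48. The log2 fold change in DKO against control was -3.87 (SE 0.57, adjusted p = 0.019), which is 14.7-fold lower and larger in size than that of 99.7% of all genes. With no detection call in the files, it is not known whether the DKO values, which lie near the lower quartile of gene means (6.87), were above background. The size depends on the offset: adding 1 in place of 16 gave a log2 fold change of -4.10, and adding 64 gave -3.36.

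Plat, the second activator, had deposited intensities of 199 and 283 in control, 161 and 347 in Ovol1 KO, and 129 and 285 in DKO. The log2 values were 7.79 and 8.22 in control, 7.38 and 8.50 in Ovol1 KO, and 7.30 and 8.19 in DKO. In each group replicate 2 was higher, and the 3 groups overlapped. The log2 fold change in DKO against control was -0.26 (95% confidence interval -1.29 to 0.77, adjusted p = 0.89). This interval still allows a change of more than 2-fold downward, so these arrays do not bound Plat tightly.

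Serpinb2, the inhibitor, had deposited intensities of 6651 and 8496 in control, 8056 and 9079 in Ovol1 KO, and 6027 and 8653 in DKO. The corresponding log2 values were 12.71 and 13.07, 13.01 and 13.16, and 12.56 and 13.01. The groups overlapped between DKO and control, and replicate 2 was again the higher array each time. In DKO against control the log2 fold change was -0.11 (95% confidence interval -0.52 to 0.30, adjusted p = 0.89). The interval is the narrowest of the 4 members.

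**Figure D1:**
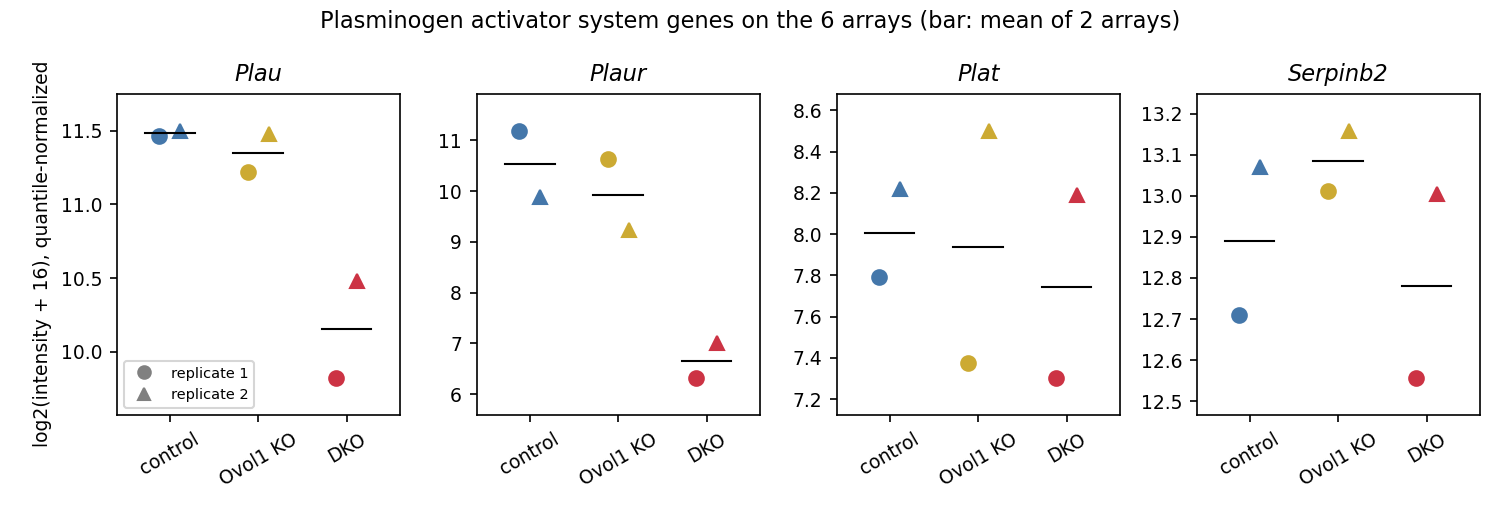
Each panel plots 1 gene, with the quantile-normalized log2(intensity + 16) of each array on its own vertical scale, by group (circle for replicate 1, triangle for replicate 2, bar for the mean of 2 arrays). Plau and Plaur are lowest on both DKO arrays, at 9.82 and 10.48 and at 6.32 and 7.005, while the groups overlap for Plat and, between DKO and control, for Serpinb2.

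The calls for Plau and Plaur rest on few arrays. Plau lost its call without control 1, without either Ovol1 KO array or without DKO 1 (adjusted p up to 0.097, log2 fold change from -1.66 to -1.002 over the 6 arrays left out in turn), and Plaur without either DKO array (adjusted p up to 0.12, from -4.52 to -3.22). With Xist as a covariate neither was called, at -1.61 for Plau (adjusted p = 0.55) and -2.47 for Plaur (adjusted p = 0.70). Xist was low on both control arrays and high on both DKO arrays, so its slope rested mainly on the Ovol1 KO arrays. The SE rose from 0.23 to 0.42 for Plau and from 0.57 to 0.85 for Plaur. Loss of the calls in this fit therefore cannot tell the sex-linked difference from genotype.

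**Figure D2:**
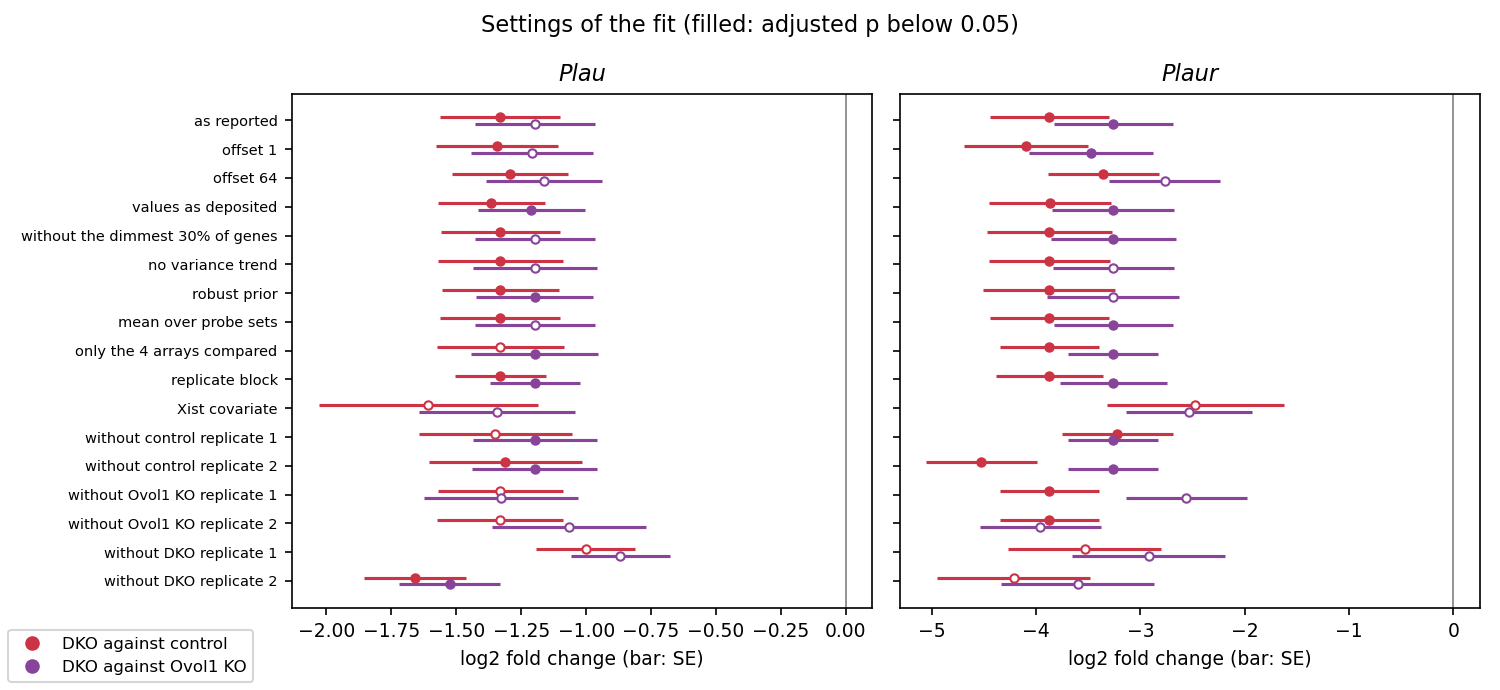
Points are the log2 fold changes of Plau (left) and Plaur (right) in DKO against control (red) and DKO against Ovol1 KO (purple) under each setting of the fit, with bars of 1 SE and filled points where the adjusted p was below 0.05. All values are below 0, and open points mark the settings in which the gene was not called.

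The second comparison, Ovol1 KO against control, addressed the loss of Ovol1 alone, against controls that themselves carried engineered Ovol alleles. In limma 0 of the 4 members and 0 of all genes passed (0%), and at an unadjusted p below 0.05 there were 0 members and 162 of all genes (0.813%). Plau differed by -0.13 on the log2 scale (95% confidence interval -0.68 to 0.42, adjusted p = 1) and Serpinb2 by 0.20 (-0.22 to 0.61, adjusted p = 1). Plaur differed by -0.61 with a wide interval, from -1.97 to 0.74 (adjusted p = 1), and Plat by -0.066 (-1.09 to 0.96, adjusted p = 1). The direction for Plaur turned to 0.038 without control 1 and to 0.087 without Ovol1 KO 2, and that for Plat to 0.15 without control 2 and to 0.50 without Ovol1 KO 1.

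The last comparison, DKO against Ovol1 KO, addressed the added loss of Ovol2. The Cre transgene and floxed allele are named for DKO but not for Ovol1 KO, so their part cannot be told apart from that loss. This comparison is also the test of whether the differences of DKO and Ovol1 KO from control are unequal. Of the 4 members 1 was called, Plaur, against 2.15% of all genes in either direction and 1.49% in the lower one. The log2 fold change of Plaur was -3.26 (SE 0.57, adjusted p = 0.042), 9.58-fold lower. That of Plau was -1.20 (SE 0.23, adjusted p = 0.058), which missed the threshold although both DKO arrays lay below both Ovol1 KO arrays, by at least 0.74. Plat stood at -0.19 (95% confidence interval -1.22 to 0.83, adjusted p = 0.86). Serpinb2 stood at -0.30 (-0.72 to 0.11, adjusted p = 0.53), with the highest DKO array only 0.0066 below the lowest Ovol1 KO array. Because the Ovol1 KO arrays enter this comparison and control enters the first, while the DKO arrays enter both, the values of the first and last comparison share samples and are given side by side only.

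The call for Plaur against Ovol1 KO was lost on leaving out any array of these groups (log2 fold change from -3.96 to -2.56 over the arrays left out, adjusted p up to 0.26). Plau gained a call in some settings, for example with an adjusted p = 0.029 when only the 4 arrays compared were fitted, where Plaur was also called. Ovol1 KO 2 carries the same high Xist signal as the DKO arrays. On that array Plau lay at 11.48, next to the control values, and Plaur at 9.22, the lowest value outside DKO. With Ovol1 KO 1 left out, so that all arrays compared had high Xist, Plau differed by -1.33 (adjusted p = 0.25) and Plaur by -2.56 (adjusted p = 0.26), with the lone Ovol1 KO array assumed to vary like the other groups.

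**Figure D3:**
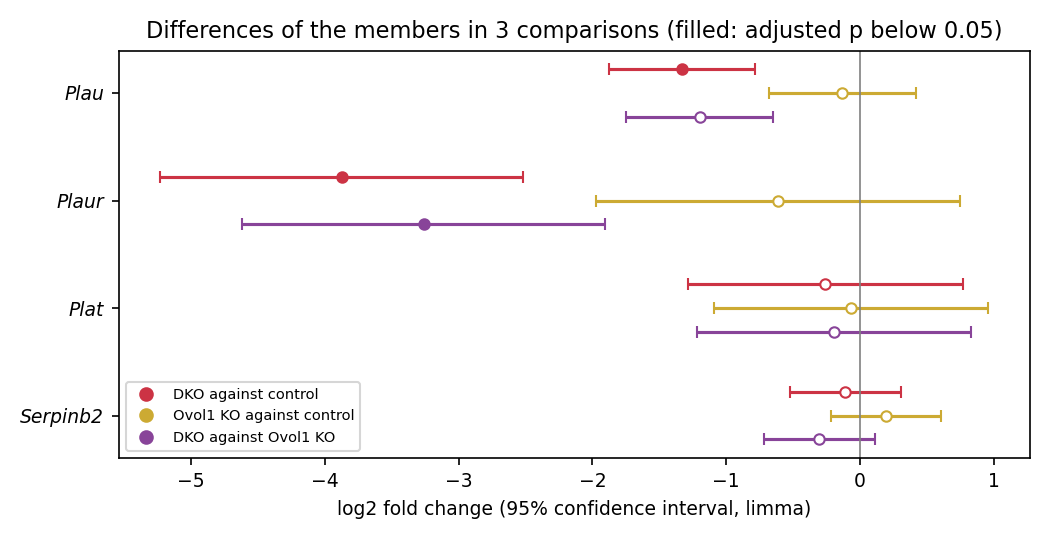
The horizontal axis is the log2 fold change of each member with its 95% confidence interval from limma, for DKO against control (red), Ovol1 KO against control (yellow) and DKO against Ovol1 KO (purple), with filled points where the adjusted p was below 0.05. Plaur lies farthest from 0, at -3.87 and -3.26 in the comparisons with DKO, and the intervals of Plat span 0 in every comparison.

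The members differed in how far replicate arrays lay apart. Plaur was among the most variable genes within the control group, where its arrays differed by 1.30 on the log2 scale and 98.5% of genes had a smaller SD, and within Ovol1 KO, where they differed by 1.40 (99.0% of genes). Plau differed by 0.039 between control arrays, and by 0.66 between DKO arrays, where 92.3% of genes had a smaller SD. Plat differed by 1.13 in Ovol1 KO and 0.89 in DKO, and Serpinb2 by 0.15 to 0.45 over the groups. After centring each gene on its mean over the 6 arrays, the root mean square difference was 1.26 log2 units between Plau and Plaur and 0.33 between Plat and Serpinb2. Plat and Serpinb2 thus had the smallest difference of the member pairs, while Plaur was 1.82 from Plat. The measure is small for any genes that vary little, and it does not compare the shape of profiles. The SD over the arrays was 0.49 for Plat and 0.23 for Serpinb2, against 0.69 for Plau and 1.97 for Plaur.

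Other genes were set beside each member by the smallest such root mean square difference, which says nothing of shared function. Members, predicted genes, unnamed transcripts, small RNA genes and olfactory and vomeronasal receptor genes were skipped. Nearest to Plau were Lrrn4cl (0.12), the acid phosphatase gene Acpp (0.12) and Thbs1 (0.12), which encodes the matrix protein thrombospondin 1. Nearest to Plaur were Cntnap2 (0.21), the chemokine gene Cxcl1 (0.22) and Aif1l (0.31). These 6 genes were lowest on both DKO arrays, and those beside Plaur were higher in replicate 1 than in replicate 2 of control and of Ovol1 KO. Both traits follow from picking genes for closeness on these same arrays, and are no separate result. Cxcl1, for example, lay at 10.53 and 9.39 in control, 10.28 and 8.86 in Ovol1 KO, and 6.04 and 7.07 in DKO. Nearest to Plat were Fbxo36 (0.15), Tmeff1 (0.16) and Adgrg2 (0.16), and nearest to Serpinb2 were Cyp2g1 (0.044), Snai2 (0.053) and Fam50b (0.074). Snai2 encodes the transcription factor Slug. The small distances of Serpinb2 go with its small spread over the arrays (SD 0.23).

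**Figure D4:**
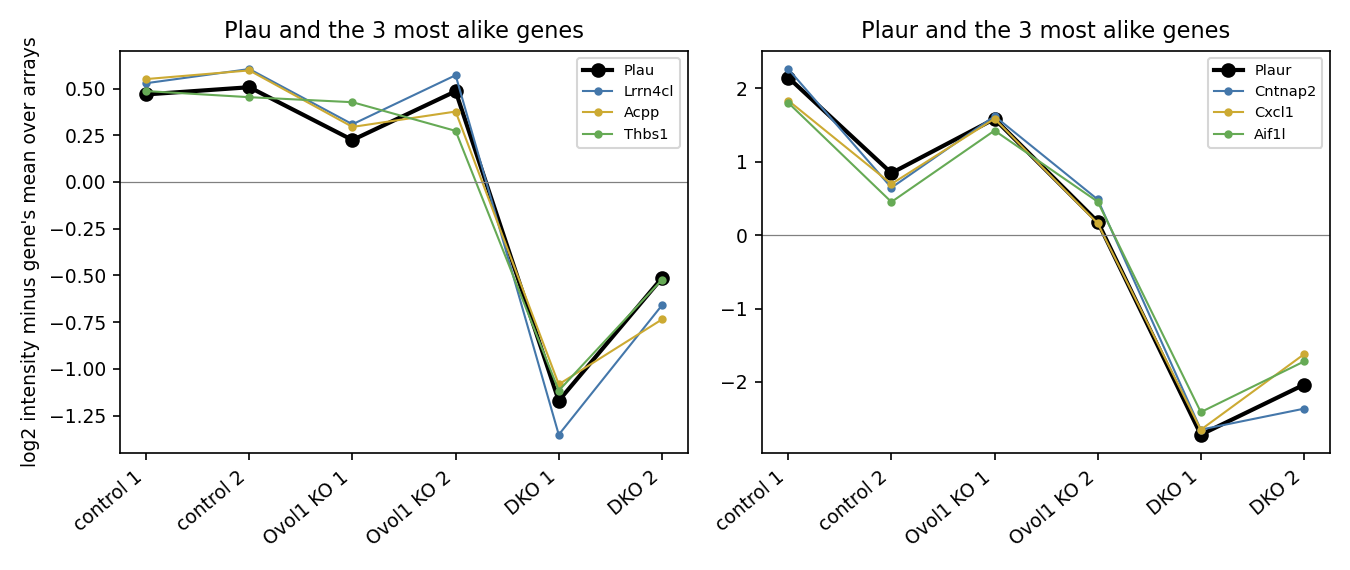
The vertical axis is the log2 intensity of each gene minus its mean over the 6 arrays. Lines are Plau and Plaur (black) and, among genes not skipped, the 3 with the smallest root mean square difference from each. All drop on the DKO arrays, and the genes beside Plaur share its higher level on replicate 1 of control and Ovol1 KO. The likeness follows from their selection on these arrays.

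The rest of the system was described with 8 lists of 112 genes, of which 101 were measured. They cover plasminogen and fibrinolysis, further activators and inhibitors, docking and clearance receptors, receptor partners and plasmin targets. The others are AP-1, Ets and NF-kB related factors listed for urokinase promoters, and the clade B serpins. In DKO against control 1 of the 101 rose, 9 fell and 91 did not pass, so 9.90% were called, beside 3.2% of all genes. Their median log2 fold change was -0.094, against 0.024 over all genes. In Ovol1 KO against control 0 passed in limma, also at an unadjusted p below 0.05. In DKO against Ovol1 KO 2 rose and 8 fell, again 9.90%, beside 2.15% of all genes. Nothing is called particular to the lists from these shares. The lists were drawn up with earlier results of these arrays known.

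The substrate and its surface receptor did not pass. Plg, which encodes plasminogen and is made mainly in liver, lay at 6.60 and 6.83 in control, 6.29 and 6.84 in Ovol1 KO, and 6.68 and 6.94 in DKO, with a log2 fold change of 0.092 in DKO against control (95% confidence interval -0.43 to 0.62, adjusted p = 0.93). Plgrkt, which encodes a plasminogen receptor, differed by 0.027 (-0.49 to 0.54, adjusted p = 0.98). The Plg group means of 6.71 (control), 6.56 (Ovol1 KO) and 6.81 (DKO) lay below the lower quartile of gene means (6.87). It is not known whether the Plg signal was above background. Of 13 measured genes of plasminogen and fibrinolysis 0 passed in limma in DKO against control, and Thbd and F3 had the smallest p-values, both below 0.05 before adjustment, as were 14.5% of all genes. Thbd, which encodes the anticoagulant receptor thrombomodulin, lay at 9.85 and 10.78 in control and 11.91 and 11.75 in DKO (log2 fold change 1.52, adjusted p = 0.096). F3, which encodes tissue factor, lay at 12.63 and 12.62 against 11.30 and 12.12 (log2 fold change -0.92, adjusted p = 0.11).

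Among 8 measured further activators and inhibitors 1 fell and 7 did not pass. St14, which encodes the membrane serine protease matriptase, lay at 12.05 and 11.69 in control, 11.98 and 11.55 in Ovol1 KO, and 10.07 and 10.04 in DKO. Against control, DKO differed by -1.81 on the log2 scale (SE 0.19, adjusted p = 0.0062), and the call held with each array left out.

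Of 8 measured docking genes 1 fell, Krt8, a keratin of simple epithelia that can bind plasminogen at the cell surface. It went from 13.38 and 12.76 in control to 9.16 and 9.35 in DKO (log2 fold change -3.81, SE 0.28, adjusted p = 0.0017). S100a10 and Anxa2, which together form a plasminogen-binding complex at the membrane, did not pass, at -0.34 (adjusted p = 0.085) and -0.21 (adjusted p = 0.19). Among 9 measured clearance receptors 0 passed in limma in this comparison. Igf2r, a receptor that binds the urokinase receptor and plasminogen, stood at -0.70 (adjusted p = 0.057) against control and fell against Ovol1 KO by 0.94 on the log2 scale (adjusted p = 0.028), a call lost on leaving out any array of those groups. Sorl1, a sorting receptor that takes up urokinase complexes, stood at -1.26 (adjusted p = 0.062). At an unadjusted p below 0.05, which 14.5% of all genes met in DKO against control, both genes passed, as did Lrp1 and Lrpap1 of the same list in the opposite direction. Lrp1, the main endocytic receptor of activator and inhibitor complexes, stood at 1.26 (adjusted p = 0.10) and Lrpap1, its chaperone, at 0.58 (adjusted p = 0.17).

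Of 13 measured membrane partners 1 fell in DKO. Itgb6, the beta subunit of the epithelial integrin that activates latent TGF-beta, lay at 11.82 and 11.72 in control, 11.83 and 11.75 in Ovol1 KO, and 7.91 and 8.38 in DKO. Its log2 fold change was -3.63 (SE 0.19, adjusted p = 0.00067). The integrin subunit genes Itgav, Itga3 and Itgb1 did not pass, at -0.80 (adjusted p = 0.060), -0.77 (adjusted p = 0.090) and -0.67 (adjusted p = 0.094). Nor did Itga5, Itgb3 and Itgb5, at -0.26 (adjusted p = 0.77), 0.034 (adjusted p = 0.97) and 0.12 (adjusted p = 0.89). Itgb6 kept its call with each array left out, in both comparisons with DKO.

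The plasmin targets held called genes of both directions, 1 higher and 3 lower among 17 measured. Mmp3, which encodes stromelysin 1, a metalloproteinase whose precursor plasmin can activate, rose from 6.94 and 7.27 in control to 9.39 and 10.20 in DKO (log2 fold change 2.69, SE 0.40, adjusted p = 0.020). Tgfb2, a ligand gene, fell from 9.91 and 9.95 to 7.46 and 7.58 (log2 fold change -2.41, SE 0.30, adjusted p = 0.010). The fibronectin gene Fn1 fell by 1.92 on the log2 scale (adjusted p = 0.036) and Thbs1 fell by 1.29 (adjusted p = 0.017). Mmp3 lost its call without DKO 2, Tgfb2 without either DKO array and Fn1 without control 1 or either DKO array, while Thbs1 kept its call with each array left out.

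Of 17 measured genes in the list of AP-1, Ets and NF-kB related factors 1 fell, and the median log2 fold change was -0.18. The called gene was Hmga2, which is in none of these families, and no AP-1, Ets or NF-kB gene was called. Hmga2, an architectural DNA-binding protein gene, lay at 11.27 and 11.38 in control, 11.31 and 11.01 in Ovol1 KO, and 10.03 and 9.82 in DKO (log2 fold change -1.40, SE 0.17, adjusted p = 0.0096). Its call was lost without DKO 2. The Ets family genes Etv5 and Etv4 stood at -1.95 (adjusted p = 0.067) and -1.23 (adjusted p = 0.096), and the AP-1 gene Fosl2 at -0.51 (adjusted p = 0.088), and these did not pass. Ets2, of the same family, stood at 0.53 (adjusted p = 0.12) and the AP-1 gene Fosb at -0.59 (adjusted p = 0.21), neither called.

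**Figure D5:**
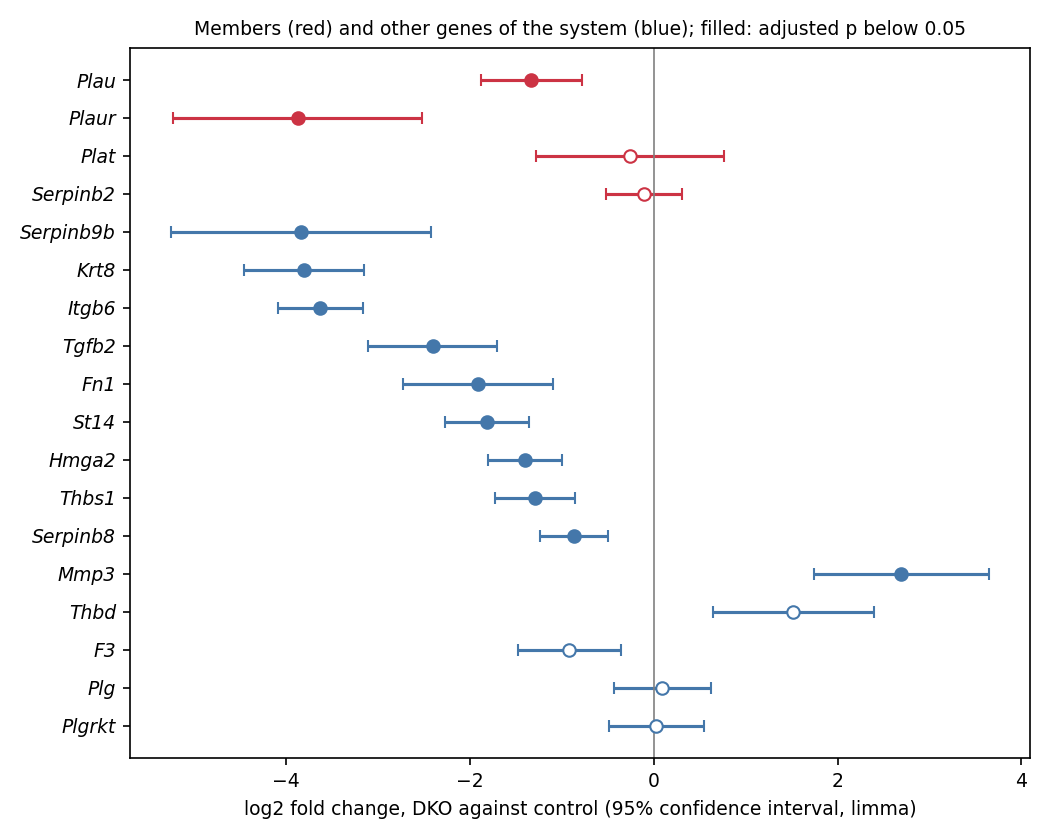
The horizontal axis is the log2 fold change in DKO against control with its 95% confidence interval from limma, for the members (red), the 10 other genes of the system that were called, and Thbd, F3, Plg and Plgrkt (blue), with filled points where the adjusted p was below 0.05. Mmp3 is the called gene above 0, and Plg and Plgrkt lie at 0.092 and 0.027.

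Serpinb2 belongs to the clade B serpins, most of which inhibit serine proteases inside or outside cells. Of 16 other measured clade members 2 fell in DKO against control, 0 rose and 14 did not pass, with a median log2 fold change of 0.21. Serpinb9b fell from 12.11 and 10.36 in control to 7.70 and 7.09 in DKO (log2 fold change -3.84, adjusted p = 0.022), a call lost without either DKO array. It has close paralogues that a probe set may not separate. Serpinb8 fell by 0.87 on the log2 scale (adjusted p = 0.035), and kept its call only without control 2 among the 6 arrays left out in turn. Next by limma p-value in DKO against control were Serpinb1a at 1.19 (adjusted p = 0.097) and Serpinb6c at 2.93 (adjusted p = 0.099). Serpinb6a at -0.48 (adjusted p = 0.15) and Serpinb12 at 2.05 (adjusted p = 0.27) came after them, and none of these was called. Serpinb1a rose in DKO against Ovol1 KO by 1.62 (adjusted p = 0.046), a call lost without either Ovol1 KO array or without DKO 1.

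Genes beside the members on the chromosomes were read next, with predicted genes, unnamed transcripts, small RNA genes and olfactory and vomeronasal receptor genes skipped. In RefSeq gene order the nearest measured genes on either side of Plau on chromosome 14 were Ndst2, Camk2g, Vcl and Ap3m1, with log2 fold changes in DKO against control from -0.45 to 0.59, none called. Around Plaur on chromosome 7 lay Smg9, Irgc1, Cadm4 and Zfp428, with 0 called and Cadm4 at -2.83 (adjusted p = 0.13). Around Plat on chromosome 8, Polb, Ikbkb, Ap3m2 and Kat6a ran from -0.44 to 0.13, with 0 called. Serpinb2 lies in a cluster of clade B serpins on chromosome 1. Beside it Serpinb11, Serpinb7 and Serpinb10 stood at 0.22, 0.93 and 1.36 and did not pass, and Serpinb8 fell as given above.

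Markers of other cell types were read on the same arrays, since fibroblasts, endothelial cells and leukocytes also make these proteins. Keratinocyte markers were present, and of 10 measured 3 rose in DKO against control (Krt1, Krt10 and Lor) and 0 fell. Krt5, Krt14, Trp63, Dsg3, Dsc3, Perp and Sfn were not called. Among all genes 0.943% were called higher. The summed normalized intensity of all 10 markers ran from 63878 to 66475 on the control and Ovol1 KO arrays. It was 111751 and 86384 in DKO, with a median log2 fold change of 0.21. The summed normalized intensity of 9 fibroblast markers ran from 1583 to 2463 on the control and Ovol1 KO arrays and was 5524 and 5692 in DKO, where Postn rose and Pdgfra fell, while the median log2 fold change of the list was 0.18. Lum was below the lower quartile of genes on every array. For 10 endothelial markers the sum was 2759 and 1463 in control, 2112 and 1437 in Ovol1 KO, and 920 and 901 in DKO. Flt1 fell, Tek and Emcn were below the lower quartile on every array, and the median log2 fold change in DKO against control was 0.0077. Sums weigh bright markers most, so a sum can move while the median of its list does not.

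For 10 macrophage and neutrophil markers the sum ran from 4058 to 7320 over the 6 arrays with 0 called, and the DKO arrays lay within that range. Adgre1 and Lyz2 were below the lower quartile of genes throughout. The melanocyte sum over 10 markers also followed replicate number, at 5488 and 7231 in replicate 1 of control and Ovol1 KO against 1560 and 1651 in replicate 2, and was 2107 and 1263 in DKO, where Kit fell and the median log2 fold change was -0.65. Mast cell markers ran from 629 to 812 with 0 called and 4 of 8 below the lower quartile throughout. Fat cell markers summed to between 3973 and 4544 outside DKO and to 2441 and 2652 in DKO, where Cidea fell, with a median log2 fold change of 0.059. Schwann cell markers summed to 5447 to 5687 outside DKO and 4717 and 4044 in DKO, where Mbp fell, with a median of -0.18. The part of these cell types, of the sex-linked difference and of replicate number in the values of Plau and Plaur was not tested. The Xist fit cannot tell the sex-linked difference from genotype in DKO against control.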

How the data were processed

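The authors deposited 1 intensity per probe set and array on a linear scale, for 35556 probe sets and 6 arrays. Affymetrix Expression Console 1.1.1 and PLIER 2.0 are named, with no role, per the submitters' processing notes. Background correction, normalization and build were not given in the sources used here. Array medians ran from 174 to 204, and the small number of arrays limits the precision.

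Intensities were increased by 16, log2-transformed and quantile-normalized, since array quartiles differed by up to 0.22. The 21789 probe sets with 1 symbol gave 19938 genes, while 1621 with several symbols and 12146 with none were left out. Group means were fitted to the 6 arrays together with limma 3.58.1 in R 4.3.3, with a variance trend, 3 residual and 3.89 prior degrees of freedom, so a spread is shared by all groups. The procedure was also run on simulated data with noise independent between arrays, so that run did not cover replicate or sex-linked differences.

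All members, lists and tests were chosen with earlier results of these data known. Named genes were the members, called genes of each list (at most 6), or its smallest p-values, Plg, Plgrkt, the 3 most alike genes and the 2 nearest measured neighbours per side. Genes named beyond these (Itgav, Itga3, Itgb1, Itga5, Itgb3, Itgb5, Etv4, Etv5, Ets2, Fosl2, Fosb, S100a10, Anxa2, Lrp1, Lrpap1, Serpinb6a, Serpinb6c, Serpinb12) were chosen after their values were seen. Alternatives were other offsets (1 and 64), values as deposited, no dim genes (lowest 30%), other eBayes settings, the mean over probe sets, a replicate block, the 4 arrays compared, Xist as a covariate and each array left out. Arrays left out were not renormalized.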

Additional observations from a re-analysis of the deposited data

How the results depend on the processing

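In DKO against control, 2 members were called as reported, 1 with only the 4 arrays compared, 0 with the Xist covariate, and 0 to 2 with an array left out. The other pathway genes called were 10 as reported, 16 with the values as deposited, 21 with the replicate block, 0 with the Xist covariate, and 6 to 14 with an array left out. In DKO against Ovol1 KO, 1 member was called as reported, 2 with the values as deposited, with only the 4 arrays or with the replicate block, 0 with an offset of 64, without the variance trend or with the Xist covariate, and 0 to 2 with an array left out. A robust prior also gave 1, but Plau (adjusted p = 0.045) in place of Plaur (adjusted p = 0.085). The other pathway genes called there were 10 as reported, 17 with only the 4 arrays, 3 with the Xist covariate, and 3 to 17 with an array left out. In Ovol1 KO against control, 0 members and 0 other pathway genes were called under each of the 16 alternatives. The log2 fold changes of Plau and Plaur in both comparisons with DKO stayed below 0 under each alternative, from -1.66 to -1.002 and from -4.52 to -2.47 against control, and from -1.53 to -0.87 and from -3.96 to -2.53 against Ovol1 KO.

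Directions of uncalled values turned. Plaur in Ovol1 KO against control was 0.057 with the Xist covariate and ran from -1.31 to 0.087 with an array left out. With an array left out, Plat ran from -0.70 to 0.18 in DKO against control, from -0.63 to 0.50 in Ovol1 KO against control and from -0.76 to 0.37 in DKO against Ovol1 KO, and Serpinb2 from -0.33 to 0.12 in DKO against control. Over all genes, 639 calls in DKO against control became 8 with the Xist covariate, 1069 with the replicate block and 258 to 735 with an array left out. In DKO against Ovol1 KO, 429 became 73, 805 and 88 to 738, and 738 with only the 4 arrays. Replicate numbers are not said to pair samples. Deviations of replicate 1 correlated at 0.69 between control and Ovol1 KO, 0.15 between control and DKO and 0.087 between Ovol1 KO and DKO. The cause of these changes was not tested. The Xist covariate nearly follows the control and DKO groups, so fewer calls in that comparison cannot tell a sex-linked part from genotype.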
